A study of Mus musculus with 9 samples.

Results

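The semaphorins, their plexin and neuropilin receptors, the ephrins and the Eph receptors were followed in RNA of whole mouse tibiae. The members were taken by symbol: all genes of the deposited table named Sema3 to Sema7, Plxna to Plxnd, Nrp1 or Nrp2, Efna, Efnb, Epha or Ephb followed by their number or letter, without Sema6b. This gave 52 of the 22183 genes in the table: 19 semaphorins, 9 plexins, 2 neuropilins, 8 ephrins and 14 Eph receptors, or 27 ligands and 25 receptors. The 9 libraries fall into 3 groups of 3. Ti+I-OG tibiae were given titanium particles together with I-OG, a gel made of natural polymer for injection that carries irisin, a peptide hormone released by muscle. Ti tibiae received titanium particles without the gel, a model of the wear debris that loosens implants without infection. Naive tibiae were left untreated. The design text gives 5 weeks of treatment with the gel and no time for the Ti or naive groups. The labels state neither strain, age nor sex. They also do not say whether replicates were different animals, and the p-values reflect only the spread of these samples, part or all of which may be technical. No group given the gel alone, an empty gel or a sham procedure was used here. Effects of the particles and of the procedure of placing them cannot be told apart, nor can those of irisin and of the gel.

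Semaphorins are secreted or membrane-bound ligands of plexins. Class 3 semaphorins are secreted, and most of them need a neuropilin as a co-receptor, whereas most others bind plexins directly. Plexins switch off Ras and Rap family GTPases inside the cell, which loosens its adhesions. Ephrins are anchored in the membrane and signal in both directions on contact with Eph receptors, the largest family of receptor tyrosine kinases. In bone, mouse studies place Sema3a with neuropilin-1 among the signals that restrain osteoclasts and favour osteoblasts. They describe Sema4d from osteoclasts acting on plexin-B1 of osteoblasts, and a bidirectional exchange between ephrin-B2 on osteoclasts and EphB4 on osteoblasts.

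The libraries held 16256081 to 24766502 counts, of which the 52 members took 0.0618% to 0.102%. Of the members, 45 passed the filter on low counts and were tested. Epha1, Epha5, Epha6, Epha8, Epha10, Sema5b and Efna3 did not pass, and Epha6 and Epha10 had no count in any library. Markers of osteoblasts, osteoclasts and marrow cells were detected in the libraries, and no marker of these lists was at 0 in all of them. Naive replicate 3 stood apart from the other naive libraries: the summed FPKM (fragments per kilobase of transcript, scaled to depth) of 12 osteoblast and bone matrix markers was 906 there, against 2256 and 2588 in naive replicates 1 and 2. In a bulk sample, fewer cells of a type and less RNA per cell cannot be told apart.

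The level of a member relative to others was read in FPKM, which corrects for transcript length. Over the 9 libraries Sema4a, a membrane semaphorin of immune cells, had the highest mean at 39.7 FPKM (range 23.6 to 79.2), followed by Sema4d at 25.5 FPKM (21.7 to 31.0). Plxnd1 at 11.4 FPKM, Nrp2 at 10.6 FPKM, Plxnb2 at 10.5 FPKM and Plxnc1 at 10.5 FPKM came next, and their ranges over the libraries overlapped. In all, 6 members averaged at least 10 FPKM, 9 at least 5 FPKM and 24 at least 1 FPKM, while 8 averaged under 0.1 FPKM. The highest Eph receptor was Ephb4 at 3.23 FPKM and the highest ephrin Efna1 at 4.92 FPKM. The class 3 semaphorins lay lower, with Sema3d at 2.18 FPKM, Sema3f at 1.61 FPKM, Sema3c at 1.41 FPKM and Sema3a at 1.3 FPKM.

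**Figure D1:**
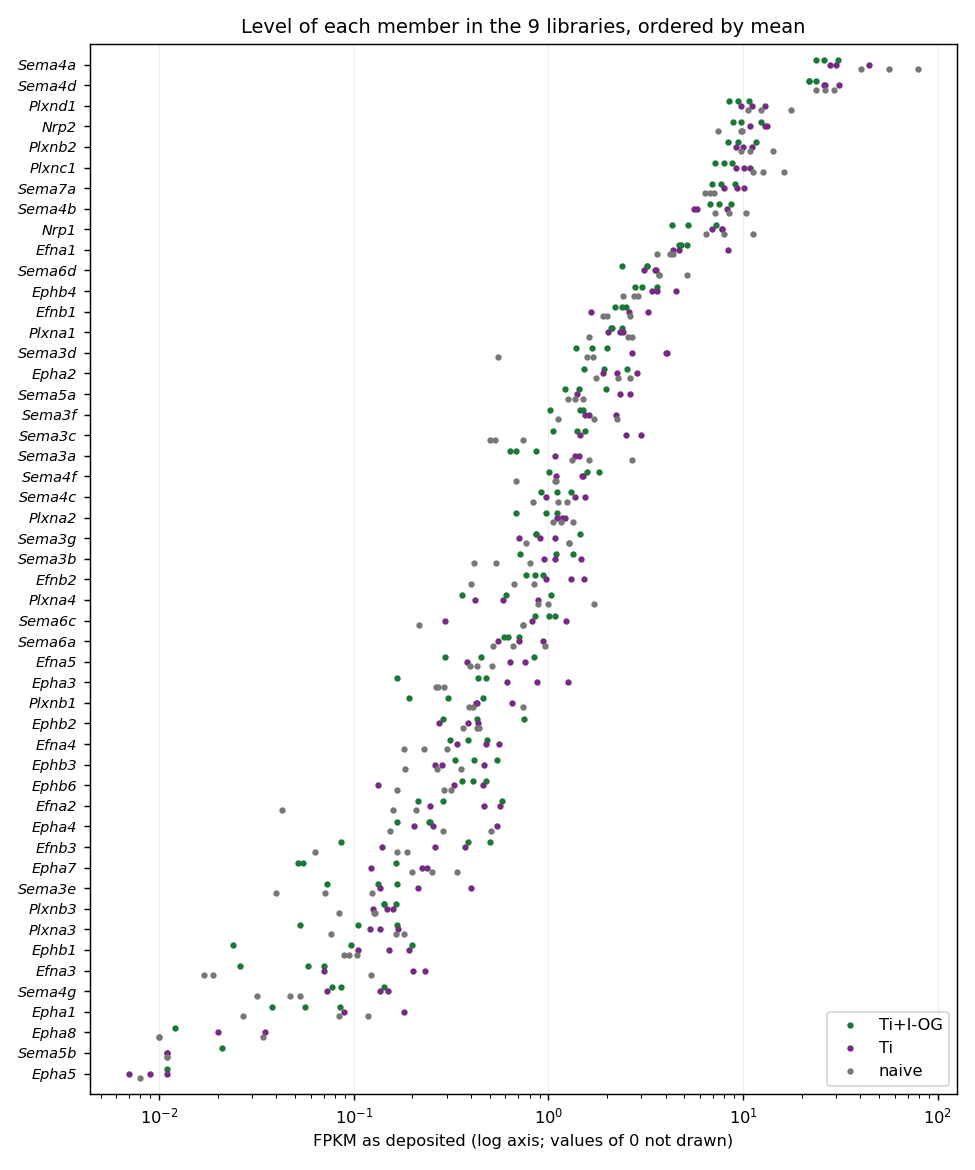
Level of each member with any count in the 9 libraries, in FPKM as deposited on a log axis, ordered by the mean. Each point is a library, coloured by group (Ti+I-OG, Ti, naive), and values of 0 are not drawn. Sema4a and Sema4d lie above all other members in every library.

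The FPKM levels were also summed over each family. Class 3 semaphorins together had 7.31 ± 0.239 FPKM in Ti+I-OG tibiae, 11.3 ± 1.82 FPKM in Ti tibiae and 7.20 ± 0.460 FPKM in naive tibiae (SD, n = 3 each), and every Ti library lay above all others. Class 4 semaphorins had 59.5 ± 6.02 FPKM in Ti+I-OG tibiae, 71.2 ± 13.1 FPKM in Ti tibiae and 95.6 ± 21.2 FPKM in naive tibiae, a sum in which Sema4a and Sema4d dominate. Ti+I-OG and naive libraries did not overlap in this sum, whereas Ti libraries overlapped with both. Ephrins had 9.74 ± 0.483 FPKM in Ti+I-OG tibiae, 11.5 ± 2.64 FPKM in Ti tibiae and 7.90 ± 0.893 FPKM in naive tibiae, with each naive library below all others. Eph receptors had 7.33 ± 0.498 FPKM in Ti+I-OG tibiae, 8.91 ± 0.738 FPKM in Ti tibiae and 6.88 ± 0.654 FPKM in naive tibiae, and the Ti libraries lay above all others. Plexins had 31.7 ± 3.89 FPKM in Ti+I-OG tibiae, 36.2 ± 3.24 FPKM in Ti tibiae and 44.0 ± 9.33 FPKM in naive tibiae. These sums use FPKM as deposited, scaled to depth alone. TMM, the scaling behind the CPM values below, gave factors from 0.896 in Ti+I-OG replicate 2 to 1.09 in naive replicate 3. Near-equal sums of groups, such as those of class 3 in Ti+I-OG and naive tibiae, therefore depend on the scaling. The sums are descriptions, and an exact permutation test of 3 libraries against 3 cannot give a two-sided p below 0.1.

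The first comparison set Ti tibiae against naive tibiae. Sema3c, Sema3d and Epha3 rose in Ti tibiae, no member fell, and 42 of the 45 tested members did not pass the threshold of an adjusted p of 0.05 (edgeR's quasi-likelihood test, Benjamini-Hochberg over 14211 genes). Where no other fit is named, a call made or missed refers to this edgeR fit of all 9 libraries, without a replicate block. The called members were 6.67% of those tested, beside 6.43% of all genes tested, of which 4.05% were called higher and 2.39% lower. In this fit the share of called members was close to the background. Fold changes nevertheless leaned upward: 34 of 45 (75.6%) were positive, beside 50.7% of all genes tested. The median log2 fold change was 0.42 over the members and 0.01 over all genes tested. With limma-trend, which tested 31 members, the medians were nearer to each other, at 0.07 over the members and −0.08 over all genes on the log2(FPKM + 1) scale, and at 0.11 and −0.09 on the log2(FPKM + 0.1) scale. The 3 Ti and 3 naive libraries did not overlap for 19 members, or 42.2%, beside 27.2% of all genes tested. Of these, 18 members (40.0%) were higher in Ti, beside 14.3% of all genes, and Plxnc1 was lower. The ephrins were positive in 7 of 7 tested members (median 0.98), the Eph receptors in 8 of 9 (0.60), the class 3 semaphorins in 5 of 7 (1.18) and the plexins in 5 of 9 (0.06). Without Ti replicate 1 the count of 3 called members was 1 (2.22%, beside 0.695% of all genes). Without Ti replicate 2 it was 1 (2.22%, beside 0.732%), and without Ti replicate 3 it was 9 (20%, beside 13.9%). It was 2 without naive replicate 1 (4.44%, beside 2.82%) and 6 without naive replicate 2 (13%, beside 9.93%). Without naive replicate 3 it was 2 (4.44%, beside 1.48%). It was 10 with DESeq2, of which 1, Sema4a, was lower, or 22.2% of the members beside 13.1% of all genes. After a correction for transcript length it was 7, or 15.6% of the members beside 5.87% of all genes. With the replicate number as a block it was 11, or 24.4% of the members beside 20.9% of all genes. Sema3e, Sema5a, Sema7a, Nrp2, Efnb2 and Ephb4 were then also called higher and Sema4a and Plxna4 lower.

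The second comparison set Ti+I-OG tibiae against Ti tibiae and asked what the gel with irisin added to the particles. No member passed the threshold with edgeR, DESeq2 or limma-trend, and 0.0422% of all genes tested, 6 genes, did so in edgeR. At an unadjusted p under 0.05 there were 4 members, Epha3, Sema3d, Sema3a and Sema3c, or 8.89% of those tested, beside 7.84% of all genes. All 4 were lower in Ti+I-OG. Ti+I-OG and Ti libraries did not overlap for 4 members, or 8.89%, beside 14.5% of all genes, and Epha3, Sema3a, Sema3d and Sema4d were each lower in Ti+I-OG. The median log2 fold change of the members was −0.13, and that of all genes tested −0.00. A p that misses the threshold does not show that the levels were equal. With 3 libraries a group the SE of the members' log2 fold changes here ran from 0.125 for Sema4d to 0.633 for Ephb1 and Efnb3.

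The third comparison set Ti+I-OG tibiae against naive tibiae and shares the naive libraries with the first. Sema3c rose in Ti+I-OG tibiae, and Sema3a, Sema4a and Plxnc1 fell. These 4 called members were 8.89% of those tested, beside 8.26% of all genes tested, of which 3.84% were called higher and 4.43% lower. The libraries did not overlap for 19 members, or 42.2%, beside 35.5% of all genes tested. Of these, 15 members (33.3%) were higher in Ti+I-OG, beside 18.7% of all genes, and 4 were lower. The median log2 fold change was 0.37 over the members and 0.03 over all genes tested. On the log2 scale of FPKM + 1 used by limma-trend the members' median was −0.02 and that of all genes −0.15. Without Ti+I-OG replicate 1, Ti+I-OG replicate 2, naive replicate 1 or naive replicate 3 the count of 4 called members was 0. All genes called there were 1.09%, 0.41%, 2.57% and 1.3%, in that order. The count was 1 without Ti+I-OG replicate 3 (2.17%, beside 2.78%) or Ti replicate 1 (2.22%, beside 4.03%). It was 6 without naive replicate 2 (13%, beside 14.7%). It was 7 with DESeq2 (15.6%, beside 17.2% of all genes), 1 after the length correction (2.22%, beside 2.48%) and 1 in a fit of the libraries of these groups alone (2.38%, beside 5.53%). With the replicate number as a block it was 9, or 20% of the members beside 24.3% of all genes, since Sema3d, Ephb3 and Ephb4 were then also called higher and Nrp1 and Plxna4 lower. An F test over the 3 groups called Sema3c (adjusted p = 0.0131), Epha3 (adjusted p = 0.0418) and Sema3d (adjusted p = 0.047), 6.67% of the members beside 5.77% of all genes tested. That count of 3 was 0 without Ti replicate 1, 5 without Ti replicate 3 and 6 without naive replicate 2. It was 1 without Ti+I-OG replicate 1, Ti+I-OG replicate 2, Ti replicate 2 or naive replicate 1. The share of all genes called in those F tests was not taken.

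**Figure D2:**
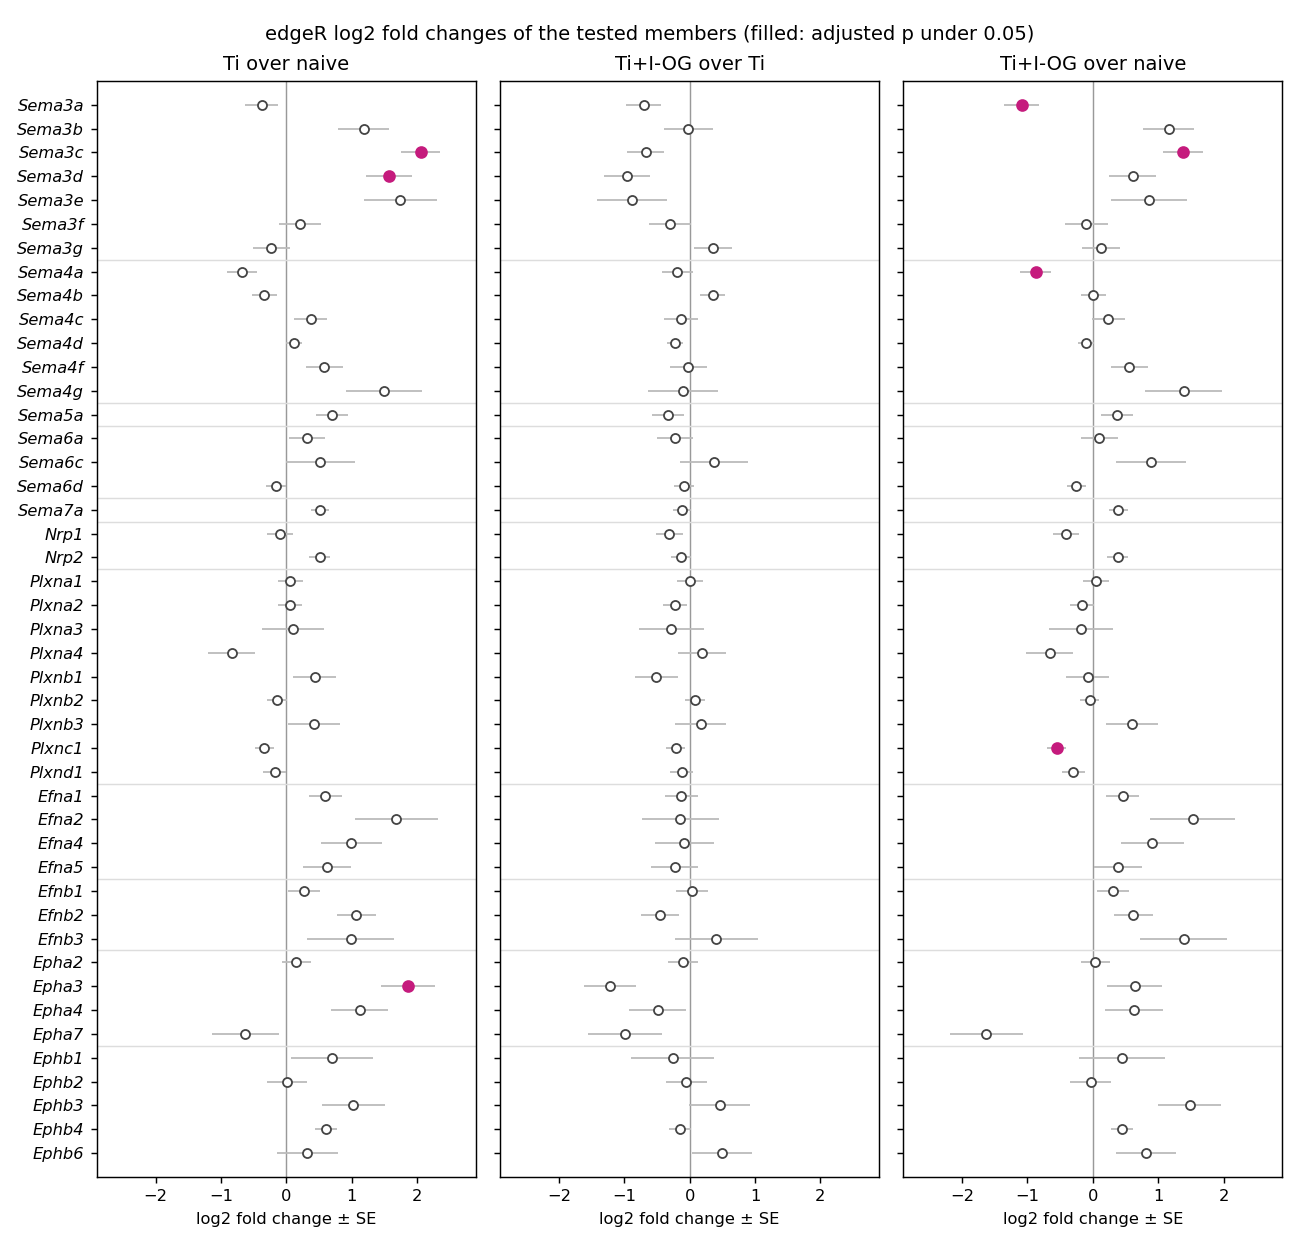
Log2 fold changes ± SE of the 45 tested members from edgeR, in rows grouped by family, for Ti over naive, Ti+I-OG over Ti and Ti+I-OG over naive. Filled points passed an adjusted p of 0.05: Sema3c, Sema3d and Epha3 in the first panel, none in the second, and Sema3a, Sema3c, Sema4a and Plxnc1 in the third.

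Among the secreted class 3 semaphorins, Sema3c, which guides neural crest cells and vessels in the developing heart, was the member with the smallest adjusted p. Sema3c had 8.38, 9.48 and 5.95 CPM (counts scaled to library depth by TMM, replicates 1 to 3) in Ti+I-OG tibiae, 13.6, 16.2 and 7.94 CPM in Ti tibiae and 2.73, 3.92 and 2.51 CPM in naive tibiae. Every library given particles, with or without the gel, lay above every naive library. Sema3c rose 4.14-fold in Ti over naive (log2 fold change 2.05, SE 0.299, adjusted p = 0.00584), a call kept when any library was left out, with adjusted p-values up to 0.0377. It rose 2.6-fold in Ti+I-OG over naive (log2 fold change 1.38, SE 0.3, adjusted p = 0.0273). The Ti+I-OG call of Sema3c was lost without Ti+I-OG replicate 1 (adjusted p = 0.0741), Ti+I-OG replicate 2 (0.12), naive replicate 1 (0.0681) or naive replicate 3 (0.0945). That call was also lost with limma-trend on log2(FPKM + 1), with or without the filter. For Ti+I-OG over Ti, Sema3c was at −0.67 on the log2 scale (SE 0.285, adjusted p = 0.63), and the libraries overlapped.

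Sema3d, a relative of Sema3c known for guiding vessels, had 13.8, 11.8 and 8.95 CPM in Ti+I-OG tibiae, 25.2, 25.4 and 16.7 CPM in Ti tibiae and 10, 9.53 and 3.18 CPM in naive tibiae. The Ti libraries lay above all others, and Ti+I-OG libraries overlapped with naive ones. Sema3d rose 2.96-fold in Ti over naive (log2 fold change 1.57, SE 0.354, adjusted p = 0.0274). Without naive replicate 3, the lowest library, the log2 fold change was 1.18 and still passed. The call was lost without Ti replicate 1 or Ti replicate 2 (adjusted p = 0.112 in both). It was also lost in a fit of Ti and naive libraries alone (adjusted p = 0.0591) and with limma-trend on log2(FPKM + 1) without a filter. Sema3d in Ti+I-OG over Ti was at −0.96 on the log2 scale (SE 0.349, adjusted p = 0.628), and in Ti+I-OG over naive at 0.61 (SE 0.355, adjusted p = 0.269), which passed with the replicate block in edgeR (0.70, adjusted p = 0.0406).

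Sema3a, the axon repellent that acts through neuropilin-1 and A-type plexins, went the other way. Sema3a had 4.46, 3.92 and 3.85 CPM in Ti+I-OG tibiae, 6.89, 7.18 and 5.88 CPM in Ti tibiae and 7.37, 6.12 and 12.6 CPM in naive tibiae. All Ti+I-OG libraries lay below all others, while Ti and naive libraries overlapped. Sema3a fell in Ti+I-OG over naive (log2 fold change −1.09, SE 0.266, adjusted p = 0.0355), but not past the threshold without any single Ti+I-OG library, Ti replicate 1, naive replicate 1 or naive replicate 3 (adjusted p from 0.0554 to 0.133), nor with the length correction (adjusted p = 0.0782). The call was also lost in a fit of Ti+I-OG and naive libraries alone. Without naive replicate 3, the highest library, the log2 fold change was −0.75. Ti over naive gave −0.38 (SE 0.257, adjusted p = 0.354) and Ti+I-OG over Ti −0.70 (SE 0.267, adjusted p = 0.628).

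Sema3e, which binds plexin-D1 without a neuropilin, was scarce, at 1.24, 1.03 and 0.51 CPM in Ti+I-OG tibiae, 1.46, 2.72 and 0.931 CPM in Ti tibiae and 0.797, 0.467 and 0.251 CPM in naive tibiae. Its libraries did not overlap between Ti and naive, but the log2 fold change of 1.74 (SE 0.556) did not pass (adjusted p = 0.0803). It passed with DESeq2 (adjusted p = 0.0358), without Ti replicate 3 (0.0405) and with the replicate block in edgeR. The other class 3 members, Sema3b, Sema3f and Sema3g, had log2 fold changes of 1.18, 0.20 and −0.23 in Ti over naive, none past the threshold with edgeR. Sema3b passed in both Ti over naive and Ti+I-OG over naive with DESeq2 and without naive replicate 2.

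**Figure D3:**
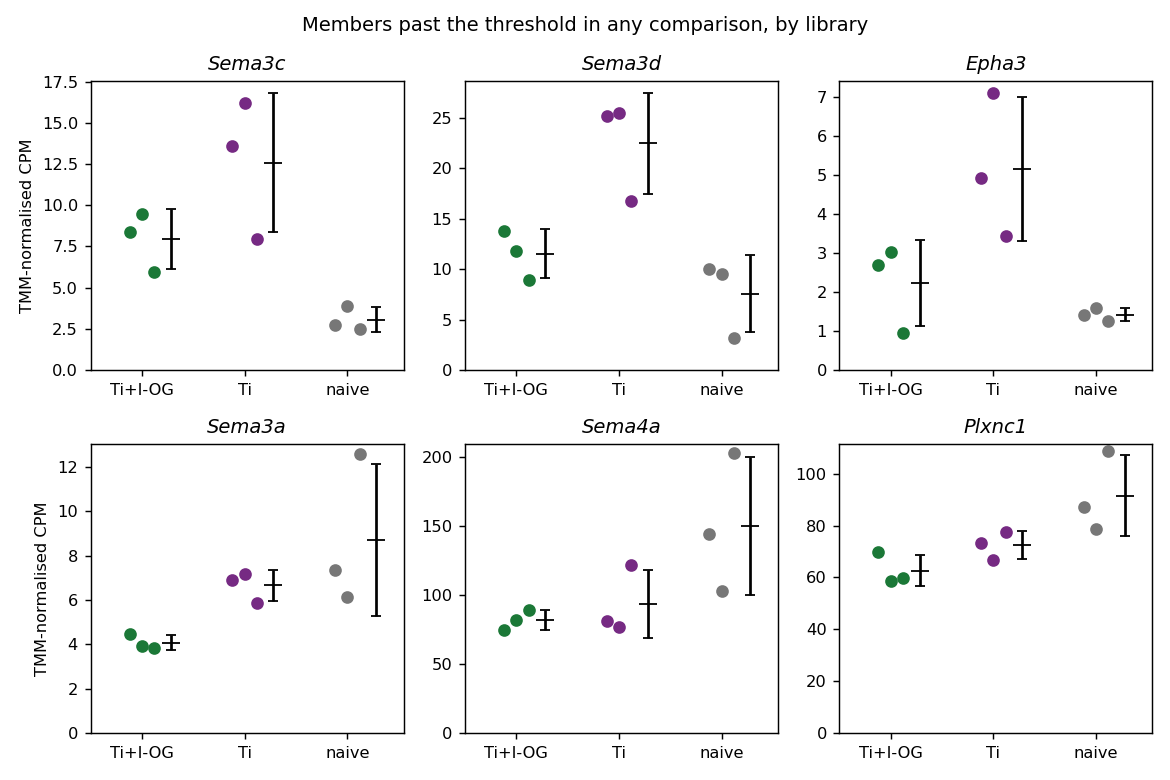
TMM-normalised CPM of the 6 members called in any comparison, by library, for Ti+I-OG, Ti and naive tibiae from left to right. Points are libraries, and the bar beside them is the mean ± SD (n = 3). For Sema3c every naive library lies below all others, for Sema3d and Epha3 every Ti library lies above all others, and for Sema3a every Ti+I-OG library lies below all others.

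The promoters of the 3 members that rose in Ti tibiae are shown because these genes rose in the same comparison and can be compared for shared short sequence motifs. They come from RefSeq (GRCm38.p6) and run 5′ to 3′ on the gene's strand from 250 bases before the start to 50 after it. Capitals mark matches on either strand to any of 6 motifs. The AP-1 motif was searched for as TGACTCA and the E-box as CATCTG. The motif of TEAD factors was searched for as GGAATG and that of RUNX factors as TGTGGT. The TATA box was searched for as TATAAA and the GC box of Sp factors as GGGCGG. Their positions are chr5:17574566-17574865 (plus strand) for Sema3c, chr5:12382916-12383215 (plus strand) for Sema3d and chr16:63864126-63864425 (minus strand) for Epha3.
Sema3c: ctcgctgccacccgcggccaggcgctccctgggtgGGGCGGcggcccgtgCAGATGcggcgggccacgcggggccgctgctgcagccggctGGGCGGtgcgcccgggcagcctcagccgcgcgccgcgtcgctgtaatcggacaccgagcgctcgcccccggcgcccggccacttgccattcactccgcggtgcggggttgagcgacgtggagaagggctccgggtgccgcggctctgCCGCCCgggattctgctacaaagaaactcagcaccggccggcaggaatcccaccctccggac
Sema3d: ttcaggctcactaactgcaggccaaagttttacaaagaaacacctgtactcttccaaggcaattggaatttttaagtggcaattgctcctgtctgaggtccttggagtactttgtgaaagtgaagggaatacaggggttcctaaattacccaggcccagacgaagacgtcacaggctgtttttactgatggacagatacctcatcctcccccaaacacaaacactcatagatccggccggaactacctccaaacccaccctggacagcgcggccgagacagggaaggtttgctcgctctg
Epha3: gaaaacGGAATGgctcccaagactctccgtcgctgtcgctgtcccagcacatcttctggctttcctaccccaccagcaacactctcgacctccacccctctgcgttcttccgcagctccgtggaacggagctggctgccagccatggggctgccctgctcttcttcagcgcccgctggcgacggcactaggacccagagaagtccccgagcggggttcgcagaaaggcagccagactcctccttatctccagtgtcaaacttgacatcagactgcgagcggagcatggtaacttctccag
None of the 6 motifs was found in all 3 windows. Sema3c held 3 GC boxes and 1 E-box in a window of 75.7% G and C, Epha3 held 1 TEAD motif at 60.7%, and Sema3d held no match at 49.7%. Of 32851 promoters of the same length, 35.7% held a GC box, 17.2% the E-box, 14.7% the TEAD motif, 16.8% the RUNX motif, 13.6% the TATA box and 5.2% the AP-1 motif. No motif contains another. Among the 46 of 52 members found in the table, 36 (78.3%) held a GC box in any promoter listed under their symbol. The share over all promoters counts single promoters of all genes, so these shares differ in unit. The members' median G and C content was 64.5%, beside 52.7% for all promoters. A match is a description of the letters and not a binding site. In RefSeq order on chromosome 5, Sema3d and Sema3a are next to each other with no protein-coding gene between, and Sema3e and Sema3c follow after 3 and 15 protein-coding genes.

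The membrane-bound class 4 semaphorins held the most abundant members. Sema4a, which acts on T cells and macrophages, had 74.4, 82.0 and 89.4 CPM in Ti+I-OG tibiae, 81.3, 77.0 and 122 CPM in Ti tibiae and 144, 103 and 203 CPM in naive tibiae. Ti+I-OG and naive libraries did not overlap, whereas Ti replicate 3 lay above naive replicate 2. Sema4a fell in Ti+I-OG over naive (log2 fold change −0.87, SE 0.237, adjusted p = 0.0462), a call lost without any single Ti+I-OG library, Ti replicate 1, naive replicate 1 or naive replicate 3 (adjusted p from 0.0665 to 0.156) and with the length correction (0.0697). The call was also lost in a fit of Ti+I-OG and naive libraries alone and with limma-trend on log2(FPKM + 1) without a filter. Without naive replicate 3 the log2 fold change was −0.62. The Ti over naive fold change of −0.68 (SE 0.236) did not pass with edgeR (adjusted p = 0.0997). It passed without Ti replicate 3 (log2 fold change −0.93) or naive replicate 2 (−0.89), with DESeq2 (−0.69, adjusted p = 0.0426) and with the replicate block in edgeR.

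Sema4d, or CD100, is made by osteoclasts and lymphocytes and acts on plexin-B1. It had 99.3, 96.8 and 98.5 CPM in Ti+I-OG tibiae, 106, 108 and 131 CPM in Ti tibiae and 105, 96.7 and 114 CPM in naive tibiae. All Ti+I-OG libraries lay below all Ti libraries, but the log2 fold change was −0.22 (SE 0.125, adjusted p = 0.659), and Ti over naive gave 0.12 (SE 0.125, adjusted p = 0.542). The other class 4 members, Sema4b, Sema4c, Sema4f and Sema4g, ran from −0.34 to 1.49 in Ti over naive, from −0.13 to 0.35 in Ti+I-OG over Ti and from 0.01 to 1.39 in Ti+I-OG over naive, none past the threshold.

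Sema7a is anchored by a lipid tail and binds integrins and plexin-C1. It had 31.1, 25.5 and 25.7 CPM in Ti+I-OG tibiae, 26.0, 30.3 and 32.9 CPM in Ti tibiae and 21, 20.2 and 21.5 CPM in naive tibiae. Every library given particles lay above every naive library, yet the log2 fold changes of 0.51 in Ti over naive (SE 0.142, adjusted p = 0.0539) and 0.39 in Ti+I-OG over naive (SE 0.142, adjusted p = 0.0943) did not pass. Ti over naive passed with DESeq2, with the length correction and with the replicate block in edgeR. Among the class 5 and 6 members, Sema5a, Sema6a, Sema6c and Sema6d ran from −0.16 to 0.70 in Ti over naive and none passed with edgeR. Sema5a passed there with the length correction, with the replicate block and without Ti replicate 3.

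The neuropilins are co-receptors of class 3 semaphorins and of vascular endothelial growth factors. They did not pass in any comparison with edgeR fitted to all 9 libraries without a block or the length correction. Nrp2 had 69.3, 64.3 and 81.8 CPM in Ti+I-OG tibiae, 84.6, 82.6 and 69.0 CPM in Ti tibiae and 60.5, 61.0 and 44.0 CPM in naive tibiae. Nrp1 had 20.5, 17.2 and 26.9 CPM in Ti+I-OG tibiae, 27.9, 24.7 and 27.7 CPM in Ti tibiae and 26.9, 22.4 and 36.8 CPM in naive tibiae. All particle libraries lay above the naive ones for Nrp2 and overlapped with them for Nrp1. In Ti over naive the log2 fold change was 0.51 for Nrp2 (SE 0.158, adjusted p = 0.0729) and −0.10 for Nrp1 (SE 0.203, adjusted p = 0.776). Against naive, Ti+I-OG tibiae had 0.38 for Nrp2 (SE 0.158, adjusted p = 0.134) and −0.41 for Nrp1 (SE 0.204, adjusted p = 0.197), of which Nrp1 passed with the replicate block in edgeR (adjusted p = 0.0477). Nrp2 passed in Ti over naive with DESeq2, with the length correction, with the replicate block in edgeR and without Ti replicate 3.

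Plxnc1, the receptor of Sema7a on myeloid cells, was the plexin called without a block. It had 69.7, 58.5 and 59.8 CPM in Ti+I-OG tibiae, 73.2, 66.7 and 77.7 CPM in Ti tibiae and 87.1, 78.8 and 109 CPM in naive tibiae, so that all naive libraries lay above all others. Plxnc1 fell in Ti+I-OG over naive (log2 fold change −0.55, SE 0.144, adjusted p = 0.0428), and the Ti over naive value of −0.34 did not pass (SE 0.144, adjusted p = 0.16). The call was lost without any single Ti+I-OG library, Ti replicate 1, naive replicate 1 or naive replicate 3 (adjusted p from 0.0603 to 0.159). It was also lost in a fit of Ti+I-OG and naive libraries alone, and with the replicate block and length correction together. With the length correction the log2 fold change was −0.22 (adjusted p = 0.296).

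The other plexins with a described role in bone or marrow did not pass in any comparison with edgeR without a block. Plxna1, the partner of Sema6d and of the Trem2 complex on osteoclasts, had 20.9, 17.2 and 22.1 CPM in Ti+I-OG tibiae, 18.1, 21.7 and 20.7 CPM in Ti tibiae and 13.7, 23.3 and 21.2 CPM in naive tibiae. Plxna2, another A-type receptor, had 11.7, 8.45 and 12.6 CPM in Ti+I-OG tibiae, 13.4, 12.2 and 12.7 CPM in Ti tibiae and 10.9, 14.1 and 11.7 CPM in naive tibiae. The groups overlapped for both. Plxna4, also an A-type receptor, had 8.53, 5.15 and 13.6 CPM in Ti+I-OG tibiae, 7.46, 5.36 and 11.3 CPM in Ti tibiae and 12.1, 11 and 20.1 CPM in naive tibiae, with log2 fold changes of −0.66 in Ti+I-OG over naive (SE 0.363, adjusted p = 0.243) and −0.84 in Ti over naive (SE 0.363, adjusted p = 0.162). The groups overlapped for Plxna4, whose Ti+I-OG over naive value passed with the replicate block in edgeR (−0.70, adjusted p = 0.0131). Its fall in Ti over naive passed with the block too.

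Plxnb1, the receptor of Sema4d, had 4.36, 2.95 and 1.70 CPM in Ti+I-OG tibiae, 3.64, 5.57 and 3.67 CPM in Ti tibiae and 3.34, 3.27 and 2.97 CPM in naive tibiae. Plxnb2, a B-type plexin of many epithelial and myeloid cells, had 66.3, 60.4 and 76.8 CPM in Ti+I-OG tibiae, 58.1, 63.3 and 70.9 CPM in Ti tibiae and 66.3, 60.9 and 84.3 CPM in naive tibiae. Ti libraries lay above naive ones in CPM for Plxnb1, and the value of 0.43 on the log2 scale did not pass (SE 0.327, adjusted p = 0.42). In FPKM Plxnb1 overlapped, at 0.424, 0.649 and 0.43 in Ti tibiae and 0.411, 0.392 and 0.741 in naive tibiae. The groups overlapped in CPM for Plxnb2. Plxnd1, the Sema3e receptor of endothelium, had 71.1, 64.9 and 75.8 CPM in Ti+I-OG tibiae, 67.1, 75.8 and 88.1 CPM in Ti tibiae and 79.2, 70.3 and 112 CPM in naive tibiae, which overlapped. Plxna3 and Plxnb3 stayed at or below 1.21 CPM in every library.

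Ephrins leaned upward in the libraries given particles. None passed the threshold with edgeR fitted to all 9 libraries with the filter on low counts and without a block. Efnb2, the ephrin of osteoclasts and arterial endothelium, had 4.91, 4.12 and 4.19 CPM in Ti+I-OG tibiae, 6.23, 7.26 and 4.60 CPM in Ti tibiae and 3, 3.88 and 1.76 CPM in naive tibiae. Every naive library lay below all others. The log2 fold change was 1.07 in Ti over naive (SE 0.295, adjusted p = 0.053), −0.45 in Ti+I-OG over Ti (SE 0.292, adjusted p = 0.692) and 0.62 in Ti+I-OG over naive (SE 0.299, adjusted p = 0.189). Ti over naive passed for Efnb2 with DESeq2, without the filter on low counts, with the replicate block in edgeR, without Ti replicate 3 and without naive replicate 2.

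Efnb1, which acts in the osteoblast lineage, had 7.83, 9.07 and 7.93 CPM in Ti+I-OG tibiae, 5.33, 8.41 and 10.4 CPM in Ti tibiae and 8.05, 6.30 and 5.70 CPM in naive tibiae, and the groups overlapped. Efna2, an osteoclast ligand of EphA2 in mice, had 0.496, 1.37 and 0.623 CPM in Ti+I-OG tibiae, 0.519, 1.20 and 0.980 CPM in Ti tibiae and 0.418, 0.327 and 0.0838 CPM in naive tibiae. Naive libraries lay below all others for Efna2, at few counts, and the log2 fold change of 1.68 in Ti over naive did not pass (SE 0.632, adjusted p = 0.123). Efna1, Efna4, Efna5 and Efnb3 ran from 0.59 to 0.99 in Ti over naive and from 0.39 to 1.39 in Ti+I-OG over naive, none past the threshold.

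Epha3, a receptor of ephrin-A5 found on mesenchymal cells, was the Eph receptor called in this fit. Epha3 had 2.68, 3.02 and 0.963 CPM in Ti+I-OG tibiae, 4.91, 7.09 and 3.43 CPM in Ti tibiae and 1.40, 1.59 and 1.26 CPM in naive tibiae. All Ti libraries lay above all others, and Ti+I-OG libraries lay on both sides of the naive ones. Epha3 rose 3.63-fold in Ti over naive (log2 fold change 1.86, SE 0.409, adjusted p = 0.0253). The call was lost without Ti replicate 1 (adjusted p = 0.0907), Ti replicate 2 (0.118), naive replicate 1 (0.0682) or naive replicate 3 (0.088), and on FPKM with limma-trend (0.0598 to 0.0739). In Ti+I-OG over Ti the log2 fold change of −1.22 had an unadjusted p of 0.0108 and an adjusted p of 0.628 (SE 0.402), and in Ti+I-OG over naive it was 0.64 (SE 0.420, adjusted p = 0.322).

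Ephb4, the receptor of ephrin-B2 on osteoblasts and venous endothelium, had 12.8, 14.6 and 16.1 CPM in Ti+I-OG tibiae, 14.6, 18.6 and 14.9 CPM in Ti tibiae and 9.49, 11 and 11.4 CPM in naive tibiae. Every naive library lay below all others, but the log2 fold changes of 0.60 in Ti over naive (SE 0.166, adjusted p = 0.0537) and 0.45 in Ti+I-OG over naive (SE 0.167, adjusted p = 0.101) did not pass. Ti over naive passed with DESeq2, with the length correction, with the replicate block in edgeR and without Ti replicate 3. Ti+I-OG over naive passed with the replicate block in edgeR (adjusted p = 0.0444). The library kit does not mark strand, and in the GENCODE annotation exons of Ephb4 overlap those of Zan on the opposite strand, so its counts are uncertain. Exons of 14 members overlap another gene, and 2 of these overlaps, Ephb4 with Zan and Epha1 with Zyx, involve a gene of the table.

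Epha2, the receptor of ephrin-A2 on osteoblasts in mice, had 8.23, 6.66 and 10.2 CPM in Ti+I-OG tibiae, 7.36, 8.70 and 11 CPM in Ti tibiae and 8.43, 6.58 and 9.34 CPM in naive tibiae. Ephb2, a receptor of B-type ephrins, had 1.64, 1.79 and 1.87 CPM in Ti+I-OG tibiae, 1.98, 2.14 and 1.32 CPM in Ti tibiae and 2.01, 1.68 and 1.72 CPM in naive tibiae. The groups overlapped for both. Epha4, reported to restrain osteoclasts in mice, had 1.69, 1.72 and 1.08 CPM in Ti+I-OG tibiae, 3.40, 1.61 and 1.27 CPM in Ti tibiae and 0.835, 0.794 and 1.26 CPM in naive tibiae. Ti and naive libraries did not overlap in CPM for Epha4, by a small margin, and the log2 fold change of 1.12 did not pass (SE 0.440, adjusted p = 0.136). In FPKM they overlapped, at 0.543, 0.256 and 0.204 in Ti tibiae and 0.506, 0.153 and 0.286 in naive tibiae. The remaining Eph receptors, Epha7, Ephb1, Ephb3 and Ephb6, ran from −0.63 to 1.02 in Ti over naive and from −1.63 to 1.48 in Ti+I-OG over naive, with Epha7 at the negative end of both, and none passed with edgeR. For Ti+I-OG over naive, Epha7 passed with DESeq2 and with library totals as the scaling, and Ephb3 with DESeq2, without naive replicate 2 and with the replicate block.

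Ratios within a library do not depend on its scaling, and FPKM sets them per length. The ratio of Sema3c to Sema3a was 1.61, 2.43 and 1.55 in Ti+I-OG tibiae, 1.76, 2.18 and 1.35 in Ti tibiae and 0.328, 0.561 and 0.187 in naive tibiae. Every library given particles thus held more Sema3c than Sema3a, and every naive library less. The ratio of Sema4a to Sema4d was 1.08, 1.20 and 1.3 in Ti+I-OG tibiae, 1.16, 1.05 and 1.42 in Ti tibiae and 2.13, 1.69 and 2.71 in naive tibiae, and the naive libraries lay above all others. The ratio of Nrp2 to Nrp1 was 1.87, 2.08 and 1.70 in Ti+I-OG tibiae, 1.69, 1.86 and 1.39 in Ti tibiae and 1.25, 1.51 and 0.665 in naive tibiae. Ti+I-OG and naive libraries did not overlap in it, whereas Ti replicate 3 lay below naive replicate 2. The ratio of Efnb2 to Ephb4 was 0.337, 0.254 and 0.235 in Ti+I-OG tibiae, 0.384, 0.336 and 0.269 in Ti tibiae and 0.275, 0.306 and 0.140 in naive tibiae, which overlapped. In these same libraries Sema3c was called higher, and Sema3a and Sema4a lower, in Ti+I-OG over naive. The ratios built on them are therefore not separate results. With 3 libraries a group the ratios were not tested further.

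**Figure D4:**
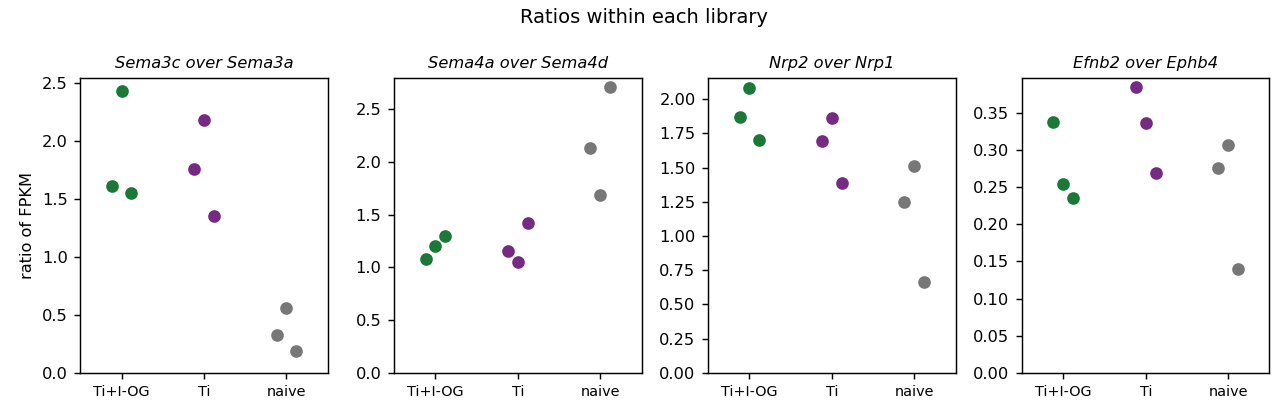
Ratio of the FPKM of 2 members within each library, for Ti+I-OG, Ti and naive tibiae from left to right. Each point is a library. The ratio of Sema3c to Sema3a is 1.35 or more in the 6 libraries given particles and 0.561 or less in the naive ones, and the ratio of Sema4a to Sema4d is higher in naive libraries than in all others.

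For some members the estimated counts and FPKM diverged, and the transcript length implied by their quotient changed between libraries. The highest and lowest implied length differed by more than 1.5 times in 7 of the 43 members with at least 10 counts in 6 or more libraries: Epha4, Epha7, Ephb2, Plxnb1, Sema3b, Sema4f and Efna5. For Epha4 it was 6.31, 6.30 and 6.33 kb in Ti+I-OG tibiae, 6.32, 6.33 and 6.32 kb in Ti tibiae and 1.76, 5.38 and 4.81 kb in naive tibiae. For Plxnb1 it was 4.39 kb in naive replicate 3 and 8.64 or 8.65 kb in the other libraries. Values of these members therefore depend on how isoforms were assigned.

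Genes that carry the signal onward, or share it, were read from a list of partners, of which 54 of 55 were in the table and 50 were tested. In Ti over naive 3 rose and 3 fell, or 12% beside 6.43% of all genes tested. None passed in Ti+I-OG over Ti, and in Ti+I-OG over naive 3 rose and 6 fell, or 18% beside 8.26% of all genes tested. With the replicate number as a block 16 partners (32%) were called in Ti over naive, beside 20.9% of all genes. In Ti+I-OG over naive 18 partners (36%) were called with it, beside 24.3% of all genes. The partners' median log2 fold changes were 0.02 in Ti over naive, −0.13 in Ti+I-OG over Ti and −0.04 in Ti+I-OG over naive, where those of all genes were 0.01, −0.00 and 0.03. The partners of semaphorins and plexins that rose in Ti over naive were Dpysl2, the cytoskeletal mediator of the Sema3a response (log2 fold change 1.45, adjusted p = 0.0198), Cd72, a B cell receptor of Sema4d (0.95, adjusted p = 0.0264), and Trem2, which works with plexin-A1 on myeloid cells (1.05, adjusted p = 0.0167). Dpysl2 had 10.7, 12 and 8.16 CPM in Ti+I-OG tibiae, 23.2, 20.0 and 10.1 CPM in Ti tibiae and 7.21, 7.19 and 5.15 CPM in naive tibiae. Every naive library of Dpysl2 lay below all others.

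The partners that fell in Ti over naive were all listed with Eph signalling: Sipa1l1, a GTPase-activating protein that switches off Rap (−1.06, adjusted p = 0.0213), Cbl, a ubiquitin ligase of receptor tyrosine kinases (−1.02, adjusted p = 0.034), and Tiam1, an exchange factor of Rac (−1.08, adjusted p = 0.0402). Cbl had 83.6, 80.2 and 100 CPM in Ti+I-OG tibiae, 120, 88.6 and 136 CPM in Ti tibiae and 181, 181 and 338 CPM in naive tibiae, with every naive library above all others. In Ti+I-OG over naive Cbl fell by 1.41 on the log2 scale (adjusted p = 0.0149), Abl2 by 0.71 (adjusted p = 0.0288), Tiam1 by 1.21 (adjusted p = 0.0305) and Itsn2 by 0.57 (adjusted p = 0.0348), while Trem2 (0.86, adjusted p = 0.0315), Cd72 (0.86, adjusted p = 0.0365) and Rras (0.76, adjusted p = 0.0398) rose. Abl2 is a tyrosine kinase, Itsn2 an endocytic scaffold and Rras a GTPase that plexins switch off. Without Ti+I-OG replicate 1, Ti+I-OG replicate 2 or naive replicate 1 the Ti over naive count of 6 partners was 4 (8%). All genes called there were 3.83%, 3.96% and 2.82%, in that order. The count was 1 (2%) without Ti replicate 1 (beside 0.695%) or naive replicate 3 (beside 1.48%). It was 0 without Ti replicate 2 (beside 0.732%). It was 8 without naive replicate 2 (16%, beside 9.93%) and 12 without Ti replicate 3 (24%, beside 13.9%). The Ti+I-OG over naive count of 9 partners was 0 without Ti+I-OG replicate 1 (beside 1.09% of all genes) or 2 (beside 0.41%). It was 2 without Ti+I-OG replicate 3 (4%, beside 2.78%). It was 4 (8%) without Ti replicate 1 (beside 4.03%) or naive replicate 1 (beside 2.57%). It was 1 without naive replicate 3 (2%, beside 1.3%) and 14 without naive replicate 2 (28%, beside 14.7%).

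Marker lists of the cells in a tibia moved in the same comparisons. In Ti over naive 7 of 9 tendon and fibrous tissue, 8 of 12 osteoblast and bone matrix and 6 of 8 osteoclast markers rose, beside 4.05% of all genes tested. So did 4 of 8 smooth muscle and pericyte markers, 3 of 7 chondrocyte markers and 1 of 8 skeletal muscle markers. The macrophage and monocyte list had 1 of 8 risen, and the Schwann cell and nerve list 1 of 6 tested. None of the endothelial, neutrophil, B lineage, T and NK cell, erythroid, megakaryocyte or proliferation markers rose. Of the 10 endothelial markers, 9 had a positive log2 fold change, beside 50.7% of all genes tested. Of the same 10, 4 were higher in Ti without overlap, beside 14.3% of all genes. No marker passed in Ti+I-OG over Ti. Over all genes tested, 953 of 14211 were lower there without overlap, and 7.75% were higher. All 7 chondrocyte markers had a negative log2 fold change in Ti+I-OG over Ti (median −1.28), and 5 of the 7 were lower without overlap. All 12 osteoblast and bone matrix markers were negative as well (median −0.58), and 7 of the 12 were lower without overlap. The 8 erythroid markers were all positive (median 0.72), and 6 of the 8 were higher without overlap. The summed FPKM of the chondrocyte markers was 37.8 to 145 in Ti+I-OG tibiae, 218 to 270 in Ti tibiae and 41 to 107 in naive tibiae, so that the Ti libraries lay above all others, as they did for Sema3d and Epha3. Skeletal muscle markers, of which 2 of 8 rose in Ti+I-OG over naive, summed to 1826 to 3116 FPKM in Ti+I-OG tibiae, 1297 to 4362 FPKM in Ti tibiae and 558 to 1553 FPKM in naive tibiae. The summed FPKM of the tendon and fibrous tissue markers was 93.5 to 163 in Ti+I-OG tibiae, 119 to 291 in Ti tibiae and 18.2 to 37.9 in naive tibiae. That of the osteoblast and bone matrix markers was 2960 to 3645 in Ti+I-OG tibiae, 4500 to 4646 in Ti tibiae and 906 to 2588 in naive tibiae. Osteoclast markers summed to 1040 to 1406 FPKM in Ti+I-OG tibiae, 1410 to 1587 FPKM in Ti tibiae and 582 to 953 FPKM in naive tibiae. For osteoblast and osteoclast markers, too, the Ti libraries lay above all others in summed FPKM, which is not TMM-scaled. For osteoclast markers the margin was small, at 1410 against 1406 FPKM. Endothelial markers summed to 99.3 to 132 FPKM in Ti+I-OG tibiae, 114 to 134 FPKM in Ti tibiae and 104 to 109 FPKM in naive tibiae. In Ti+I-OG over naive 6 of 8 osteoclast, 6 of 9 tendon and fibrous tissue and 4 of 8 erythroid markers rose, beside 3.84% of all genes tested. There 1 of 12 osteoblast and bone matrix markers, 1 of 7 chondrocyte markers and 1 of 10 endothelial markers rose. So did 1 of 8 smooth muscle and pericyte, 1 of 8 macrophage and monocyte and 1 of 6 tested Schwann cell and nerve markers. Of the 8 neutrophil markers none passed in Ti+I-OG over naive, while 1 fell in Ti over naive. The erythroid markers summed to 193326 to 198465 FPKM in Ti+I-OG tibiae, 81403 to 122072 FPKM in Ti tibiae and 37197 to 118656 FPKM in naive tibiae, and the neutrophil markers to 35031 to 54207 FPKM in Ti+I-OG tibiae, 45102 to 61187 FPKM in Ti tibiae and 51917 to 72308 FPKM in naive tibiae. The part of these cell types in the members' values was not tested.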

How the data were processed

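Per the labels' protocols, oligo(dT)-selected RNA of mouse tibiae was prepared with a NEBNext Ultra RNA kit, which does not mark strand, for Illumina sequencing. RSEM, StringTie 1.3.1, fastp, edgeR and DESeq2 are listed, per the submitters' processing notes, with no role stated. The aligner, build and annotation were not given in the sources used here. For 22183 genes in 9 libraries the authors deposited estimated counts. The FPKM values, fragments per kilobase of transcript scaled to depth, are also as deposited by the authors. The estimated counts were rounded to whole numbers here.

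Sample titles gave the groups and replicate numbers. No library was a copy of another in its group, as chi-square values per degree of freedom ran from 12.9 to 132, and all were kept. Library totals were 16256081 to 24766502, so 3 counts, the floor for a gene without counts, equal 0.121 to 0.185 CPM per library. This floor covers counting error only. Genes were tested with edgeR 4.0.16 in R 4.3.3 (TMM, filterByExpr, quasi-likelihood, 1 mean per group, all 9 libraries, 6 residual degrees of freedom, two-sided), which kept 14211 genes and left out 7972. P-values were adjusted by Benjamini-Hochberg over these genes (threshold 0.05). To obtain the SE, each log2 fold change was divided by the root of its F statistic. CPM is TMM-normalised. The test was checked on simulated data.

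The labels number the replicates without saying what a number stands for. Same-number libraries deviated together (r over 0.1) in 3 of 3 pairs of Ti+I-OG with naive, in 2 of 3 of Ti with naive and in 2 of 3 of Ti+I-OG with Ti. Fits with that number as a block are given beside changed calls in Ti over naive and Ti+I-OG over naive.

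Alternatives were other size factors, no filter, DESeq2 1.42.0, limma-trend (limma 3.58.1) on log2(FPKM + 1) or log2(FPKM + 0.1), which understates changes of low genes, fits of only the compared groups, a correction for transcript length, the replicate number as a block, and leaving out each library. limma-trend on FPKM was filtered at a mean of 0.5 FPKM. Values in every library are given for members past the threshold in any contrast and for members with a published role in bone or marrow, 24 in all, and up to 4 called partners with the smallest p per contrast and direction are named. The members, the gene lists and these rules were chosen with earlier results of these data known. Promoters came from RefSeq (GRCm38.p6) by symbol and exon overlaps from GENCODE, which holds 52 of 52 member identifiers.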

Additional observations from a re-analysis of the deposited data

How the results depend on the processing

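Called members kept the sign of their fold change under every alternative run, in the comparison in which they were called. Another sign was found in 90 alternative values of 14 named members, none of them past the threshold in either fit (log2 −0.22 to 0.29). Members called in Ti over naive (3) numbered 10 with DESeq2, 1 with limma-trend on log2(FPKM + 1) without a filter, 7 with the length correction, and 1 to 9 with a library left out. In Ti+I-OG over naive (4) they numbered 7 with DESeq2, 2 with limma-trend without a filter, 1 in the fit of these groups alone, 1 with the length correction, and 0 to 6 with a library left out. In the F test over the groups (3) they numbered 6 with library totals, 5 without a filter, 10 with DESeq2, 0 with limma-trend without a filter, 1 with the length correction, and 0 to 6 with a library left out. Partners called in Ti over naive (6) numbered 12 with DESeq2, 3 with limma-trend on log2(FPKM + 1), 3 on log2(FPKM + 0.1), 0 without a filter, 3 in the fit of these groups alone, and 0 to 12 with a library left out. In Ti+I-OG over naive (9) they numbered 4 with limma-trend without a filter, 1 with the length correction, and 0 to 14 with a library left out. No member or partner was called in Ti+I-OG over Ti under any alternative run. The cause of these changes was not tested. The share of all genes called moved too. With a library left out it ran from 0.695% to 13.9% in Ti over naive and from 0.41% to 14.7% in Ti+I-OG over naive. With limma-trend without a filter it was 0.715% and 5.31%. Library totals as the only scaling moved the median log2 fold change of all genes to −0.07 in Ti over naive, −0.12 in Ti+I-OG over Ti and −0.16 in Ti+I-OG over naive, where 0.01, −0.00 and 0.03 were found with TMM, and the members' medians there were 0.35, −0.26 and 0.17. Members with about 1 CPM or less, such as Efna2 and Sema3e, rest on few counts, which limits what these libraries can show for them.

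Of the 9 libraries, 9 correlated best with a library of their own replicate number in another group, a hint from the data and not the design. With that number as a block, 11 members (24.4%, beside 20.9% of all genes) and 16 partners were called in Ti over naive, 9 members (20%, beside 24.3%) and 18 partners in Ti+I-OG over naive, and 11 members in the F test. With the block and the length correction together these were 11 members (24.4%, beside 19.2%) and 16 partners, 10 members (22.2%, beside 14.8%) and 14 partners, and 10 members. The block changed no call of a member in Ti+I-OG over naive other than those of Sema3d, Ephb3, Ephb4, Nrp1 and Plxna4.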
